A study of Homo sapiens with 4 samples.

Results

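The BEN-domain genes described here are BEND3, BEND4, BEND5, BEND6, BEND7, NACC1 and NACC2, 7 of the 26364 genes listed in the deposited count files, and all 7 held enough counts to be tested. They were taken by gene symbol, with no threshold on a measured value. The members and the gene lists used below were chosen with earlier results of these data known. Messenger RNA was sequenced in NTERA2, a human embryonal carcinoma line, in 2 libraries labelled BEND3 sh60 (replicates 1 and 2) and 2 libraries labelled BEND3 LacZ (replicates 1 and 3). The sh60 label is taken here to mean a short hairpin RNA directed at BEND3 and the LacZ label its control hairpin. That reading comes from the names alone. Every library came from the same line grown in high-glucose medium with serum, and no label records a further allele or drug, a harvest time or how a hairpin was introduced. The comparison therefore rests on a single hairpin in a single line. Because the labels are silent on separate cultures, p-values reflect the spread between these libraries, which may be technical. That spread is estimated largely across genes.

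The BEN domain is a DNA- and protein-binding fold named after BANP, a poxvirus protein and NAC1, and proteins that carry it mostly act as transcriptional repressors that bring in chromatin-modifying enzymes. BEND3 has several BEN domains, occupies CpG-rich chromatin and heterochromatin, and has been linked with the NuRD deacetylase complex, the Polycomb complex PRC2 and the NoRC complex that silences ribosomal DNA. NACC1 and NACC2 join a BEN domain to a BTB domain, which lets them dimerise and bind corepressors, and in mouse embryonic stem cells the NACC1 protein is part of the network around Oct4 and Nanog. The series is titled for a role of BEND3 in holding differentiation genes down in pluripotent cells.

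Total counts were 33798665 and 44788461 in sh60 replicates 1 and 2 and 42538561 and 30338285 in LacZ replicates 1 and 3. Levels are given as CPM, the read counts scaled to each library's size by the TMM method, and as TPM where genes are compared with each other, since TPM also divides by exon length. A single count was worth 0.0221 to 0.0333 CPM. Pluripotency markers, 10 in number, summed to 4414 to 4608 CPM in sh60 and 4735 to 4983 CPM in LacZ (1 rose and 4 fell). SOX2 rose. DNMT3B, singled out after its values were seen, measured 573 and 546 CPM in sh60 replicates 1 and 2. In LacZ replicates 1 and 3 it measured 879 and 957 CPM. TDGF1, SALL4 and NANOG fell too, and the other 5 markers were not called. LIN28A, the most abundant of the 10, was among the uncalled (1562 CPM in sh60, 1434 CPM in LacZ). The sum follows its abundant genes, so it does not show how the markers moved in general. The labels describe the cells as an ES-derived lung carcinoma line, yet 8 lung epithelial markers together reached 0.352 to 0.442 CPM in sh60 and 0.599 to 0.783 CPM in LacZ, with SFTPB and SCGB1A1 at 0 in all 4 libraries. Blood markers were near 0 as well (0.998 to 1.13 CPM in sh60, 1.20 to 1.38 CPM in LacZ, PTPRC and HBB at 0), whereas 8 fibroblast markers summed to 924.7 to 1089 CPM in sh60 and 445.0 to 541.7 CPM in LacZ (3 rose and 2 fell), and 8 neuronal markers to 309.3 to 334.2 CPM in sh60 and 216.7 to 231.4 CPM in LacZ (4 rose and 1 fell). COL1A1, COL1A2 and LUM rose and THY1 and PDGFRA fell among the fibroblast markers. Without COL1A1, a sum chosen after its values were seen, the other 7 came to 371.2 and 405 CPM in sh60 and 400.3 and 360.2 CPM in LacZ, which overlap. Among the neuronal markers TUBB3, MAP2, SNAP25 and STMN2 rose, and TUBB3 and MAP2 made up most of the neuronal sum. RBFOX3 fell, with means of 4.52 CPM in sh60 and 9.63 CPM in LacZ. The marker calls are to be read beside 15.8% of all tested genes higher and 13.0% lower. The part of these shifts in the members' differences was not tested, and in bulk RNA fewer cells of a type and less RNA per cell cannot be told apart. On the first principal component, with 76.0% of the variance, the sh60 libraries lay at 32.7 and 31.7, LacZ replicate 1 at -25.4 and LacZ replicate 3 at -38.9.

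Of the 7 BEN-domain genes, BEND3 and NACC1 fell in the sh60 libraries, NACC2 rose, and BEND4, BEND5, BEND6 and BEND7 did not pass edgeR's quasi-likelihood test (adjusted p threshold 0.05 over 16040 genes). That is 3 members called of 7, beside 28.8% of all tested genes. In direction it is 1 member higher, beside 15.8% of tested genes, and 2 members lower, beside 13.0%. In all 7 genes both sh60 libraries lay on one side of both LacZ libraries, a pattern shared by 64.4% of all tested genes. The median log2 fold change of the 7 was 0.27, with 4 positive and 3 negative values, and that of all tested genes was -0.0042.

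The promoters of the 3 called members are shown because BEND3 is a binder of CpG-rich DNA. No binding or methylation was measured in the libraries. Each window runs from 250 bases before to 50 bases after a transcription start in RefSeq (build GRCh38.p14, unlike the hg19 coordinates of the count files), printed 5′ to 3′ on the gene's strand with every CpG in capitals. The table lists 2 starts for BEND3, at chr6:107115466-107115765 and chr6:107114383-107114682, both on the minus strand, 1 for NACC1 at chr19:13118014-13118313 on the plus strand and 1 for NACC2 at chr9:136095240-136095539 on the minus strand.
BEND3 first start: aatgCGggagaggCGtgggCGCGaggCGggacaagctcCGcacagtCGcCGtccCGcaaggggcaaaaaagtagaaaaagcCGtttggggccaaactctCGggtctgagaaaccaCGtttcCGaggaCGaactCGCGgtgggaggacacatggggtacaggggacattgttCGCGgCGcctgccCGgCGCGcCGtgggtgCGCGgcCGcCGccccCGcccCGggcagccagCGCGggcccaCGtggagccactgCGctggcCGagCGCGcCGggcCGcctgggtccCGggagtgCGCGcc
BEND3 second start: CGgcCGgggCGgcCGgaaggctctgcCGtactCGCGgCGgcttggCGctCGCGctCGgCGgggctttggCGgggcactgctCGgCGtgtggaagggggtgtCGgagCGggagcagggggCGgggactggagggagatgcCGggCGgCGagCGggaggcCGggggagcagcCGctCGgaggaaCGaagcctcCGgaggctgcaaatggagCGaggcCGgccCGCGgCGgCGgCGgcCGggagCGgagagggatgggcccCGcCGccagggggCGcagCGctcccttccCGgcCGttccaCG
NACC1: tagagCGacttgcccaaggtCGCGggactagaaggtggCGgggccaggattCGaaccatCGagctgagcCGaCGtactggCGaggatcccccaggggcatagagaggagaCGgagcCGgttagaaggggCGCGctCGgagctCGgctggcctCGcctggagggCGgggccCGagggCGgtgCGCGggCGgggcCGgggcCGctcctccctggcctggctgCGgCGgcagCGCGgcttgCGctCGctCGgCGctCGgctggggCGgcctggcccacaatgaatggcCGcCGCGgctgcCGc
NACC2: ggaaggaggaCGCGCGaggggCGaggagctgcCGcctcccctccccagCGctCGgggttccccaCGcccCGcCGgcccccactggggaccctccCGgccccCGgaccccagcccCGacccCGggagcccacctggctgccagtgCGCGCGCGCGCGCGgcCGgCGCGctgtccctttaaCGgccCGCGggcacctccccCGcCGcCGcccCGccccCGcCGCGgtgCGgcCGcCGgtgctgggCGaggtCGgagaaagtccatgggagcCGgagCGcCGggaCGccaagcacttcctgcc

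These windows hold 41 and 44 CpGs for BEND3, 38 for NACC1 and 43 for NACC2, against a median of 14 and an upper quartile of 28 over 35116 RefSeq promoter windows of the same length. All 7 members had a window in the table. The other members' windows hold 25 CpGs in BEND4, 29 in BEND5, 51 in BEND6 and 53 in BEND7. Every window listed for a member thus holds more CpGs than the median promoter, for members that fell, rose and were not called alike. The windows were matched by gene symbol and not placed on the hg19 gene models. Whether each lies at the start of the gene as counted was not tested.

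BEND3, the gene named in both labels, was measured first as the check of those labels. Its 6660 bases of exon lie in 5 blocks on the minus strand of chromosome 6, 107386385 to 107435636 (hg19). It had 1896 and 2352 counts in sh60 replicates 1 and 2 and 2899 and 2385 counts in LacZ replicates 1 and 3. Scaled to library size these are 55.7 and 51.9 CPM in sh60, against 68.8 and 79.3 CPM in LacZ. Both sh60 values lie below both LacZ values, and the exact 95% Poisson interval of the higher sh60 library (53.2 to 58.2 CPM, counting error only) does not reach that of the lower LacZ library (66.3 to 71.4 CPM). The means were 53.8 ± 2.63 CPM in sh60 and 74.1 ± 7.43 CPM in LacZ (SD, n = 2 each). The log2 fold change was -0.46 (SE 0.098, edgeR adjusted p = 0.00168), so 0.727 of the LacZ level remained, with a 95% confidence interval of 0.630 to 0.839. BEND3 was thus lower in the libraries labelled sh60 and still well above the counting floor, and 10.2% of tested genes had a log2 fold change as low or lower. The single-library ratios of sh60 to LacZ ran from 0.655 (sh60 replicate 2 over LacZ replicate 3) to 0.809 (sh60 replicate 1 over LacZ replicate 1). The call was lost when LacZ replicate 3 was left out, at a log2 value of -0.36 (edgeR adjusted p = 0.153).

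**Figure D1:**
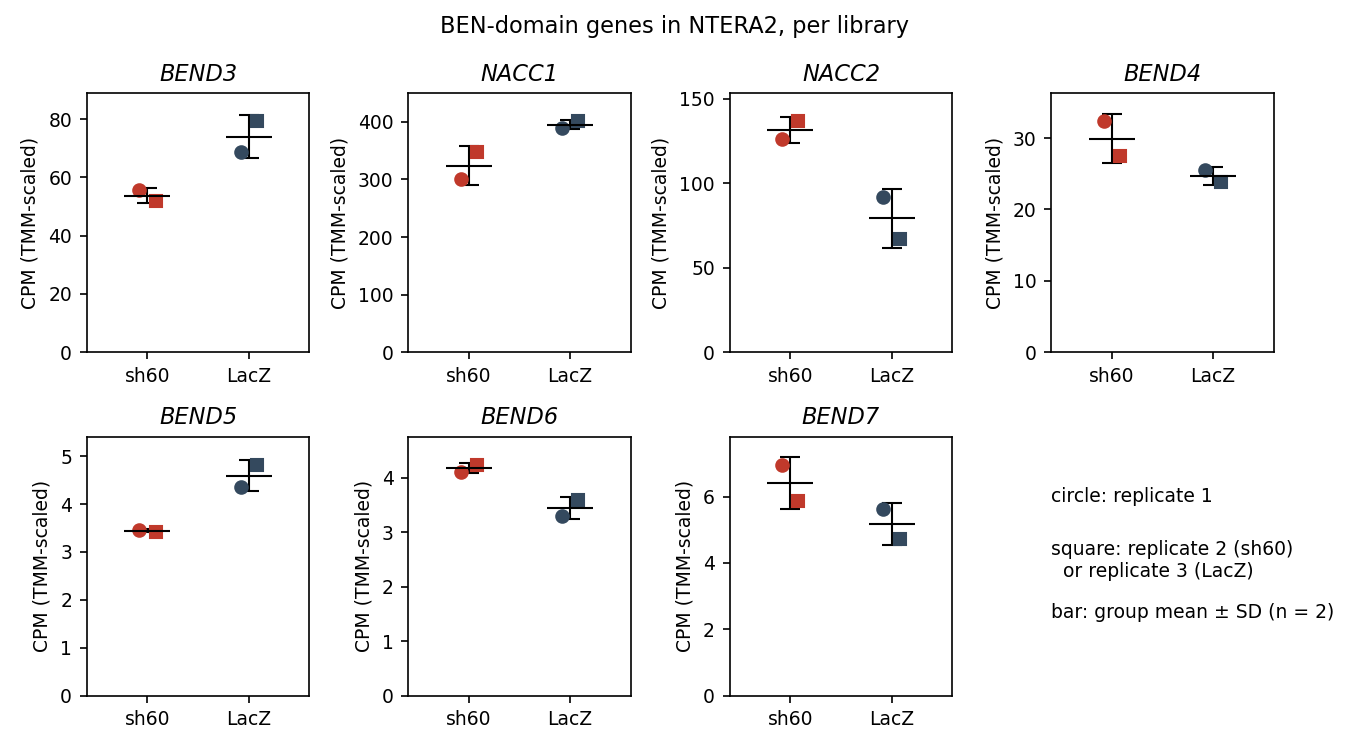
CPM of each BEN-domain gene in each library (vertical axes from 0), sh60 on the left and LacZ on the right, with group mean and SD (n = 2). In every panel both sh60 points lie on one side of both LacZ points, as they do for 64.4% of tested genes; BEND3, NACC1 and NACC2 passed the test across all genes.

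NACC2 showed the largest fold change of the 7 genes and the only rise among the 3 called. This BTB and BEN protein has been described as a repressor that works through the NuRD complex. The gene lies on the minus strand of chromosome 9, 138898383 to 138987131 (hg19), with 6899 exon bases. It measured 125.9 and 136.6 CPM in sh60 replicates 1 and 2, against 91.7 and 67.0 CPM in LacZ replicates 1 and 3. The 2 sh60 libraries were close to each other, while the LacZ libraries differed by a ratio of 1.37, the widest gap within a group for any member. The means were 131.3 ± 7.54 CPM in sh60 and 79.3 ± 17.5 CPM in LacZ (SD, n = 2 each), a rise of 1.65-fold (log2 fold change 0.72, SE 0.11, 95% interval 0.48 to 0.97, edgeR adjusted p = 0.000119). The rise passed in all 14 alternatives and was 0.98 without LacZ replicate 1 and 0.52 without LacZ replicate 3 on the log2 scale. NACC2 ranked 842nd of the tested genes by p, and its fold change exceeded that of 92.4% of them.

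NACC1, the most abundant of the family, fell by a smaller factor. It lies on the plus strand of chromosome 19, 13229102 to 13251961 (hg19), and is known as a cancer-associated BTB repressor. It measured 300.1 and 348.2 CPM in sh60 replicates 1 and 2, against 389.6 and 401.1 CPM in LacZ replicates 1 and 3. Here the sh60 libraries were the ones that differed from each other, by a ratio of 1.16, and the LacZ libraries were nearly equal. The means were 324.2 ± 34.0 CPM in sh60 and 395.3 ± 8.14 CPM in LacZ (SD, n = 2 each), with a log2 fold change of -0.29 (SE 0.085, edgeR adjusted p = 0.0168) and a fold of 0.820 (95% interval 0.725 to 0.928). The call was lost without LacZ replicate 1 (log2 fold change -0.30, adjusted p = 0.147) and without LacZ replicate 3 (-0.27, adjusted p = 0.252), although its size hardly moved, and each of those fits assumes that the lone LacZ library varies like the sh60 pair. Leaving out sh60 replicate 1 gave -0.18 (adjusted p = 0.0131).

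The other 4 members did not pass, and their intervals bound what may have been missed. BEND4 measured 32.4 and 27.5 CPM in sh60 and 25.6 and 23.8 CPM in LacZ, with a log2 fold change of 0.27 (95% interval 0.039 to 0.51, edgeR adjusted p = 0.0755). It is the member nearest to the threshold: with library totals as the only scaling it passed (adjusted p = 0.0489), as it did without sh60 replicate 2 (0.39, adjusted p = 0.00729). The value was 0.15 without sh60 replicate 1 (adjusted p = 0.285) and 0.15 with GC and length trends removed (adjusted p = 0.128). BEND7 measured 6.96 and 5.85 CPM in sh60 and 5.63 and 4.72 CPM in LacZ, with a log2 fold change of 0.29 (-0.049 to 0.64, edgeR adjusted p = 0.197). Its value was 0.17 without sh60 replicate 1, 0.18 without LacZ replicate 3 and 0.44 without LacZ replicate 1. For BEND4 and BEND7 the lower sh60 library and the higher LacZ library differed by only a ratio of 1.07 and 1.04.

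BEND5, whose fly relative Insensitive is a DNA-binding repressor, was the lowest of the uncalled genes relative to LacZ. It measured 3.46 and 3.42 CPM in sh60 and 4.37 and 4.82 CPM in LacZ, from 118 to 184 counts a library, with a log2 fold change of -0.41 (95% interval -0.77 to -0.049, edgeR adjusted p = 0.0839). BEND6, known in mouse as a corepressor of the Notch effector CSL, measured 4.11 and 4.24 CPM in sh60 and 3.30 and 3.59 CPM in LacZ, from 108 to 192 counts a library. Its log2 fold change was 0.28 (-0.085 to 0.65, edgeR adjusted p = 0.252). At these counts a change the size of that in BEND3 lies inside the interval of BEND5, and a rise of that size inside those of BEND4, BEND6 and BEND7. BEND5 and BEND6 were not called in any of the 14 alternatives, nor was BEND7.

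Other BEN genes listed in the files showed no called change. BANP, which binds a CGCG-containing promoter element, measured 19.3 and 19.8 CPM in sh60 and 18.9 and 21.3 CPM in LacZ, with overlapping groups and a log2 fold change of -0.04 (SE 0.11, 95% interval -0.27 to 0.20, edgeR adjusted p = 0.853) that was above 0 in 2 alternatives. BEND2, a germline gene, had 0 and 0 counts in sh60 and 1 and 1 in LacZ, below what the depth can compare. The pseudogene BEND3P3 on chromosome 10 had 0 counts in all 4 libraries, where the limit that a count of 0 allows is 3 counts, or 0.0663 to 0.0998 CPM. The counting left out reads that map to several places, so any read shared by BEND3 and a near-identical copy is missing from the BEND3 level in every library.

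**Figure D2:**
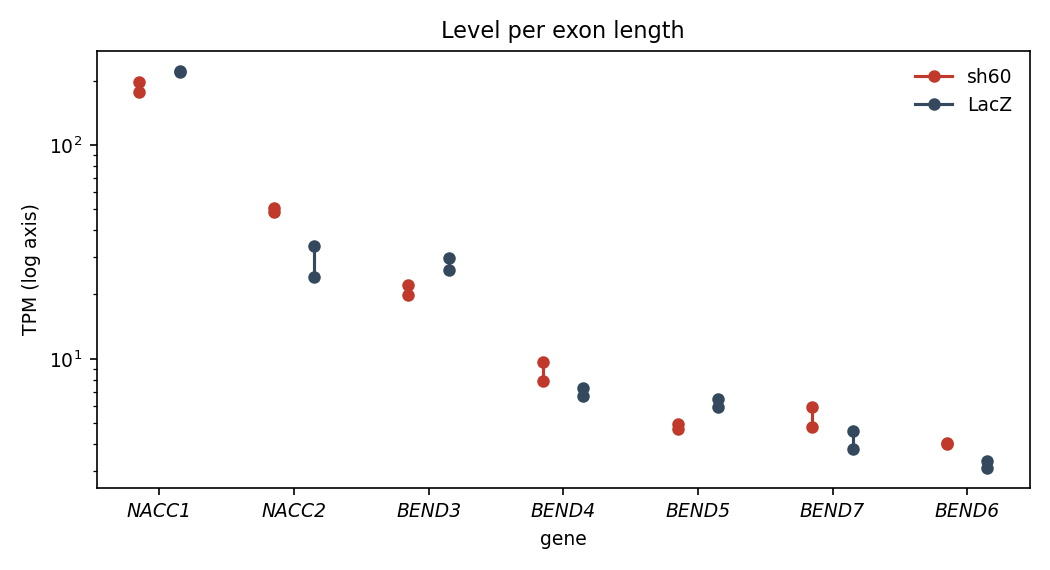
TPM of each member (logarithmic vertical axis), sh60 to the left of LacZ for each gene, with the 2 libraries of a group joined by a line. NACC1 stands at 177 to 223 TPM, NACC2 and BEND3 between 19.9 and 50.5 TPM and the other 4 between 3.09 and 9.69 TPM.

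Per exon length, NACC1 was the most abundant member at 187.1 ± 14.7 TPM in sh60 and 220.7 ± 2.56 TPM in LacZ (SD, n = 2 each). NACC2 came next with 49.5 ± 1.53 TPM in sh60 and 28.9 ± 6.62 TPM in LacZ, then BEND3 with 21.0 ± 1.58 TPM in sh60 and 27.9 ± 2.55 TPM in LacZ. The libraries of NACC2 and BEND3 overlapped in LacZ and not in sh60, so their order was set beyond the spread only in sh60. BEND4 followed at 8.81 ± 1.25 TPM in sh60 and 7.01 ± 0.419 TPM in LacZ. BEND5 (4.85 TPM in sh60, 6.24 TPM in LacZ) and BEND7 (5.39 TPM in sh60, 4.20 TPM in LacZ) exchanged places between the groups, and in sh60 their libraries overlapped. BEND6 was lowest with 4.02 TPM in sh60 and 3.21 TPM in LacZ. The same order was found when levels were computed as CPM divided by exon length.

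As a family the 7 genes summed to 271.9 and 289.5 TPM in sh60 replicates 1 and 2, against 299.6 and 296.9 TPM in LacZ replicates 1 and 3. The makeup of that sum differed more than the sum. NACC1 held on average 66.6% of it in sh60 and 74.0% in LacZ, NACC2 17.8% and 17.5% in sh60 and 11.2% and 8.17% in LacZ, and BEND3 8.15% and 6.88% in sh60 and 8.72% and 10.0% in LacZ. The ratio of NACC2 to BEND3 was 2.18 and 2.54 in sh60 and 1.29 and 0.815 in LacZ. The 2 groups of that ratio did not overlap. NACC2 and BEND3 are the members with the largest rise and the largest fall in these same libraries, so that gap follows from those changes. The exact two-sided permutation p was 0.333, which is the smallest that 2 libraries against 2 can give, so the test could not decide.

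LacZ replicate 1 lay on the sh60 side of LacZ replicate 3 in 6 of the 7 members, all but BEND6, as it did in 68.4% of all tested genes. LacZ replicate 3 is the reference for both differences, so they tend to share a direction even without any group difference. These counts therefore do not show that LacZ replicate 1 was shifted toward sh60. In BEND3 LacZ replicate 1 held 0.867 of the CPM of LacZ replicate 3, and in NACC2 1.37 times. The difference between the LacZ libraries thus ran in the direction of the sh60 difference for both genes. In NACC1 the same 2 libraries stood at a ratio of 0.971.

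**Figure D3:**
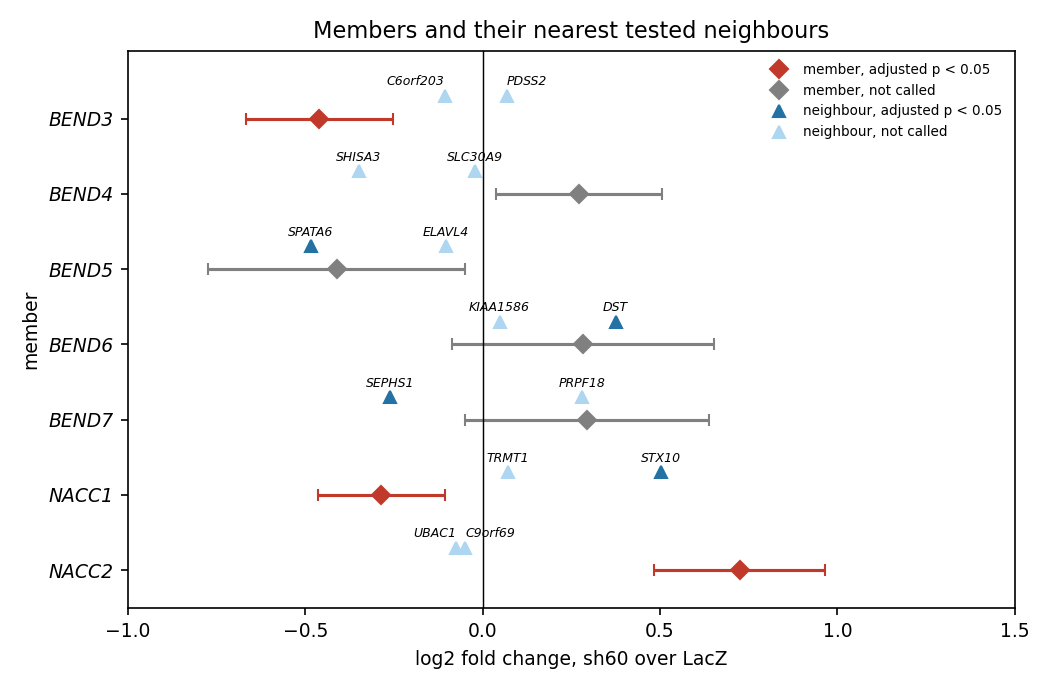
Log2 fold change (horizontal axis, sh60 over LacZ) of each member with its 95% interval (diamonds) and of the nearest tested gene on each side (triangles). NACC2 stands at 0.72 while its neighbours UBAC1 and C9orf69 lie at -0.07 and -0.05, and BEND3 at -0.46 between C6orf203 at -0.11 and PDSS2 at 0.07.

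The genes next to each member were examined to see whether a change extended beyond it. Of the 14 nearest tested neighbours 2 rose, 2 fell and 10 did not pass, with a median log2 fold change of -0.03, beside 15.8% of all tested genes higher and 13.0% lower. Neither neighbour of BEND3 was called: C6orf203 averaged 10.0 CPM in sh60 and 10.8 CPM in LacZ, and PDSS2, an enzyme of coenzyme Q synthesis, 10.3 CPM in sh60 and 9.78 CPM in LacZ. The neighbours of NACC2 were not called either, UBAC1 with 64.9 CPM in sh60 and 68.3 CPM in LacZ and C9orf69 with 109.5 CPM in sh60 and 113.3 CPM in LacZ. C9orf69 passed as lower when sh60 replicate 2 was left out (-0.19, adjusted p = 0.0356). Beside NACC1, TRMT1, a tRNA methyltransferase, was not called at 112.9 CPM in sh60 and 107.5 CPM in LacZ, and passed as higher when sh60 replicate 1 was left out (0.17, adjusted p = 0.0403). STX10, a syntaxin of endosome transport that lies 2910 bases past NACC1, rose (24.1 ± 2.92 CPM in sh60, 17.04 ± 0.403 CPM in LacZ, SD, n = 2 each, log2 fold change 0.50, edgeR adjusted p = 0.00322), opposite in sign to NACC1.

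BEND6 and DST, which encodes the cytoskeletal linker dystonin, start 346 bases apart on opposite strands. DST rose (113.3 ± 11.9 CPM in sh60, 87.4 ± 0.428 CPM in LacZ, SD, n = 2 each, log2 fold change 0.37, edgeR adjusted p = 0.00500) and BEND6 had a value of 0.28 that did not pass. The DST call was lost without LacZ replicate 1 (adjusted p = 0.104) and without LacZ replicate 3 (adjusted p = 0.113). BEND6's neighbour on the far side, KIAA1586, was not called, with 24.5 CPM in sh60 and 23.6 CPM in LacZ.

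SPATA6 beside BEND5 fell (7.93 CPM in sh60, 11.1 CPM in LacZ, log2 fold change -0.48, edgeR adjusted p = 0.0134), a call lost without LacZ replicate 3 (adjusted p = 0.215). It lies 255314 bases away, and ELAVL4, a neuronal RNA-binding protein on the other side, was not called (0.923 CPM in sh60, 1.02 CPM in LacZ). BEND5 itself sits inside the span of AGBL4 on the same strand, with 0 exon bases in common. AGBL4 measured 0.533 CPM in sh60 and 0.401 CPM in LacZ and was not called. SEPHS1 beside BEND7, a selenophosphate synthetase gene, fell (338.5 CPM in sh60, 405.4 CPM in LacZ, log2 fold change -0.26, edgeR adjusted p = 0.0169) and lost that call without LacZ replicate 1 (adjusted p = 0.176) and without LacZ replicate 3 (adjusted p = 0.351). PRPF18, a splicing factor gene on the other side of BEND7, had 16.2 CPM in sh60 and 13.3 CPM in LacZ and was not called, but passed as higher when sh60 replicate 2 was left out (0.45, adjusted p = 0.0115). The neighbours of BEND4 were not called: SLC30A9, a zinc transporter gene, had 108.3 CPM in sh60 and 109.9 CPM in LacZ, and SHISA3 8.13 CPM in sh60 and 10.4 CPM in LacZ. SHISA3 had a log2 fold change of -0.35, passed at -0.61 without LacZ replicate 1 (adjusted p = 0.00811) and stood at -0.05 without LacZ replicate 3.

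The chromatin partners linked with BEND3, the genes tied to NACC1 and NACC2 and the Notch pathway are given as counts and medians, to be read beside 28.8% of all tested genes called (15.8% higher, 13.0% lower) and a median log2 fold change of -0.0042 over all tested genes. Of 16 NuRD genes 5 fell, 0 rose and 11 did not pass, with a median of -0.20. ZMYND8, a reader of acetylated histones, fell to 184.7 ± 11.1 CPM in sh60, against 240.2 ± 13.2 CPM in LacZ (SD, n = 2 each). RBBP4, a histone chaperone subunit shared with PRC2, fell to 604.2 CPM in sh60 against 764.0 CPM in LacZ, and MBD3 to 126.9 CPM in sh60 against 162.5 CPM in LacZ. CHD3 and MTA2, named after their values were seen, also fell. Lower NuRD genes numbered 1 when LacZ replicate 1 was left out and 0 when LacZ replicate 3 was, and 8 without sh60 replicate 1, by upper-quartile scaling and with the length trend or the GC and length trends removed. In the fit without sh60 replicate 1, 2 NuRD genes rose. RBBP4 and MBD3 lost their calls without LacZ replicate 1 (adjusted p = 0.0719 and 0.0669), and these and ZMYND8 without LacZ replicate 3 (0.0899, 0.180 and 0.156).

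Of 12 genes of NoRC and rDNA silencing 2 rose and 3 fell, with a median of -0.11. BAZ2A, the large NoRC subunit, rose to 233.6 ± 7.49 CPM in sh60, against 180.2 ± 2.34 CPM in LacZ, and SIRT7, a nucleolar deacylase, to 15.5 ± 1.47 CPM in sh60, against 10.0 ± 0.181 CPM in LacZ (SD, n = 2 each). DNMT3B, a de novo DNA methyltransferase, fell to 559.2 ± 19.3 CPM in sh60, against 918.0 ± 54.6 CPM in LacZ, and DNMT1 and SETDB1, named after their values were seen, fell too. SMARCA5, the NoRC remodeller, and USP21, a deubiquitinase reported to stabilise NoRC, were not called: SMARCA5 had 388.7 CPM in sh60 and 399.1 CPM in LacZ, and USP21 40.5 CPM in sh60 and 43.4 CPM in LacZ. The BAZ2A call was lost without LacZ replicate 1 (adjusted p = 0.0874) and without LacZ replicate 3 (adjusted p = 0.0777). Without either LacZ library 1 gene of the list rose and 1 fell, and 5 or 6 fell without either sh60 library or with the length or the GC and length trends removed.

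Of 13 PRC2 genes 4 fell, 1 rose and 8 did not pass, with a median of -0.05. C17orf96, also called EPOP, a PRC2 cofactor of pluripotent cells, had the largest change at 5.69 ± 1.23 CPM in sh60, against 13.8 ± 2.90 CPM in LacZ (SD, n = 2 each, log2 fold change -1.26, SE 0.17, edgeR adjusted p = 2.00e-05). EED, a core subunit, fell to 32.7 CPM in sh60, against 43.4 CPM in LacZ. RBBP4 is counted here as well as in NuRD. EZH2, the catalytic subunit, fell to 86.9 CPM in sh60, against 103.7 CPM in LacZ, and LCOR rose; these were named after their values were seen. SUZ12 was not called, with 72.95 CPM in sh60 and 66.6 CPM in LacZ. The EED call was lost without LacZ replicate 1 (adjusted p = 0.117) and without LacZ replicate 3 (adjusted p = 0.0577). Without LacZ replicate 1 or without LacZ replicate 3, 1 PRC2 gene fell and 0 rose. With sh60 replicate 1 left out 0 rose, and with sh60 replicate 2 left out or the GC and length trends removed 2 rose.

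Among 12 genes tied to NACC1 and NACC2 as partners or targets, 1 rose, 4 fell and 7 did not pass, with a median of -0.03, beside 15.8% of all tested genes higher and 13.0% lower. MDM2, the ubiquitin ligase of p53 and a reported target of repression by NACC2, rose to 372.1 ± 32.9 CPM in sh60, against 207.5 ± 12.8 CPM in LacZ (SD, n = 2 each, log2 fold change 0.84, SE 0.087, edgeR adjusted p = 1.13e-06). NACC2 and MDM2 were thus both higher in the sh60 libraries. SALL1, a zinc finger factor, fell to 199.4 CPM in sh60, against 328.8 CPM in LacZ, and SALL4, a pluripotency factor that recruits NuRD, to 112.9 CPM in sh60, against 139.7 CPM in LacZ. The SALL4 call was lost without LacZ replicate 1 (adjusted p = 0.181) and without LacZ replicate 3 (adjusted p = 0.225). HDAC3, a deacetylase bound by NACC1, and NANOG fell as well and were named after their values were seen. POU5F1 was not called, with 962.7 CPM in sh60 and 944.6 CPM in LacZ. Without either LacZ library 1 gene of this list fell, and 2 rose without sh60 replicate 1, with library totals or with the length or the GC and length trends removed.

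Of 14 tested genes of the Notch and CSL pathway, which BEND6 is known to restrain in mouse, 6 fell, 1 rose and 7 did not pass, with a median of -0.15, beside 15.8% of all tested genes higher and 13.0% lower. RBPJ, which encodes CSL, was level with 215.0 CPM in sh60 and 208.8 CPM in LacZ and was not called. HEY2, a target, fell to 11.4 ± 0.0841 CPM in sh60, against 16.5 ± 0.326 CPM in LacZ, and MAML3, a coactivator, to 12.2 ± 0.326 CPM in sh60, against 17.4 ± 1.595 CPM in LacZ (SD, n = 2 each). HEYL, HEY1 and NOTCH4, named after their values were seen, fell with group means under 2 CPM. NOTCH2, a receptor, rose to 304.4 CPM in sh60, against 227.8 CPM in LacZ. The NOTCH2 and MAML3 calls were lost without LacZ replicate 3 (adjusted p = 0.0912 and 0.105). Fewer members fell by DESeq2 (2), without LacZ replicate 1 (3), without LacZ replicate 3 (2, with 0 higher) and without sh60 replicate 1 (3), and 2 rose without sh60 replicate 2.

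The genes whose pattern over the 4 libraries was most like that of BEND3 were SKA1, PITPNC1, KBTBD7, DCLRE1A and AK4. Likeness was the distance between log2 CPM values centred on each gene's mean, among 11254 other genes with a mean of at least 5 CPM, and ran from 0.0392 for SKA1 to 0.0444 for AK4. SKA1, a kinetochore protein, measured 31.8 and 29.6 CPM in sh60 and 40.5 and 46.1 CPM in LacZ. DCLRE1A, a nuclease of crosslink repair, measured 27.5 and 25.6 CPM in sh60 and 34.1 and 37.9 CPM in LacZ, and AK4, a mitochondrial adenylate kinase, 77.1 and 69.1 CPM in sh60 and 93.9 and 109.2 CPM in LacZ. PITPNC1, a lipid transfer protein, had 26.6 and 24.3 CPM in sh60 and 33.0 and 36.8 CPM in LacZ. KBTBD7, an adaptor of a ubiquitin ligase, had 5.96 and 5.70 CPM in sh60 and 7.62 and 8.85 CPM in LacZ. Without LacZ replicate 3 their log2 fold changes ran from -0.40 (SKA1) to -0.36 (AK4), against -0.36 for BEND3. The 5 were picked for likeness to BEND3 in these same libraries, so a like response follows from the choice. By DESeq2 KBTBD7 was not called (adjusted p = 0.0575), whereas BEND3 was. With only 4 libraries such likeness is a description: 191 genes had a Pearson correlation with BEND3 above 0.99, and ranking by that correlation gave 5 leading genes of which 0 are among those named.

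**Figure D4:**
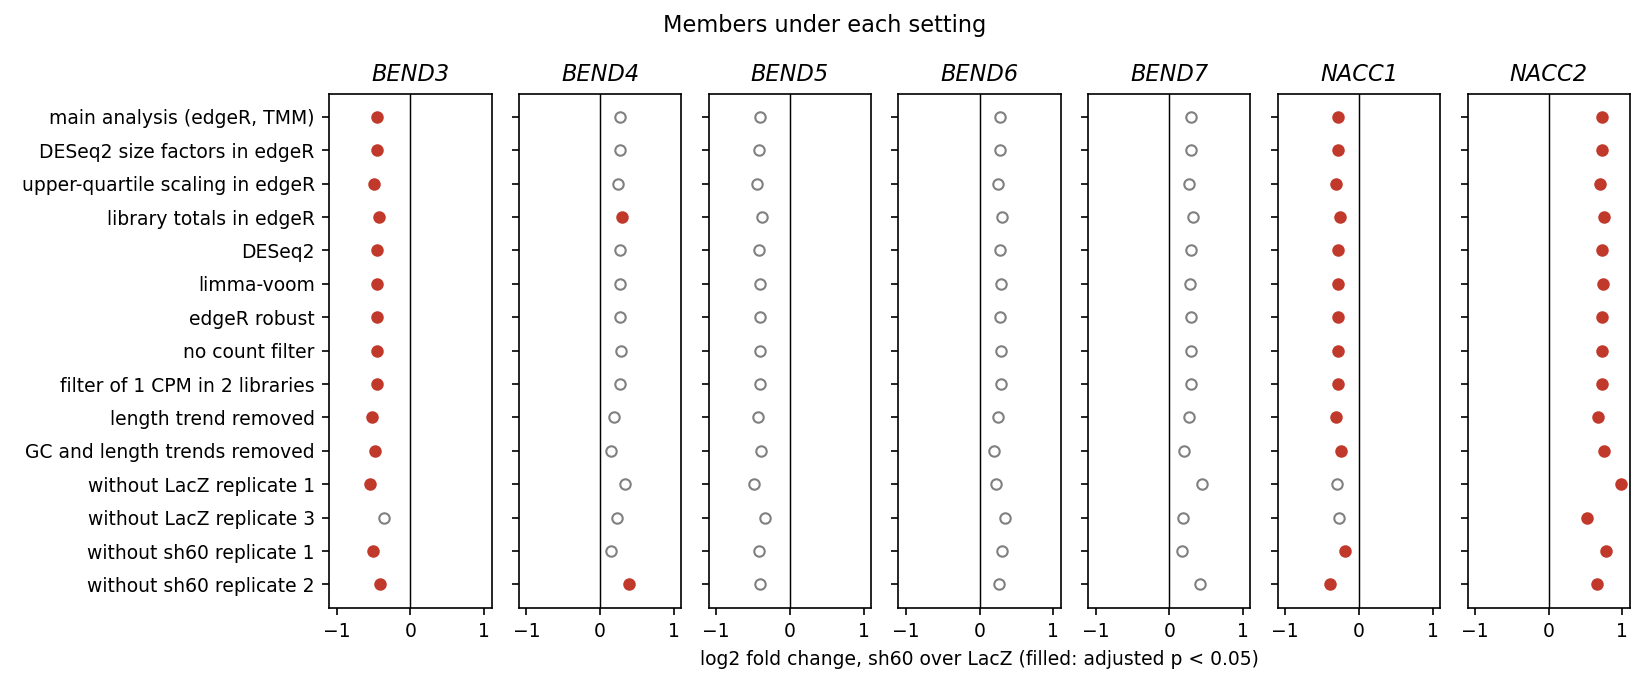
Log2 fold change of each member (horizontal axes, sh60 over LacZ) in the main analysis and each of the 14 alternatives, filled where the adjusted p is below 0.05. NACC2 is filled throughout, BEND3 in all but the fit without LacZ replicate 3, and NACC1 in all but the fits without LacZ replicate 1 or LacZ replicate 3.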

How the data were processed

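Single-end stranded mRNA libraries of NTERA2 cells were deposited as 1 table each of read counts per gene, whole numbers that the authors did not normalise, per the file headers. Alignment was with STAR 2.7.6a to hg19, per the submitters' processing notes, and exon reads were counted per gene with featureCounts (Subread 2.0.0) at strand setting 2, per the file headers. The exon length deposited beside each count served for TPM.

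Groups and replicate numbers came from the library titles. The quasi-likelihood test of edgeR 4.0.16 was run in R 4.3.3 after TMM scaling and filterByExpr, with group as the only term, Benjamini-Hochberg adjustment over 16040 genes and a threshold of 0.05; the script was tested on simulated data. The common dispersion between libraries corresponded to a coefficient of variation of 7.33%, on 2 residual degrees of freedom. The fit added 15.9 prior degrees of freedom from all genes. Each p-value and interval thus rests more on the spread over genes than on a gene's own libraries. No library was a copy of another: chi-square divided by its degrees of freedom was 16.8 for the sh60 pair and 6.19 for the LacZ pair. Intervals are 95%; Poisson intervals and the limit of 3 counts cover counting error only. Alternatives used other scalings and filters, DESeq2 1.42.0, limma-voom (limma 3.58.1), loess trends on length and GC content, and left out each library. GC content came from the longest GENCODE transcript by symbol (94.2% of tested genes).

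Members and lists were chosen with earlier results of these data known. Named genes are the members, other BEN genes, the nearest tested neighbours, up to 3 called genes of each list with the smallest p and the 5 genes most like BEND3. Genes named beyond these (further called or uncalled genes of the lists, markers and the gene that spans BEND5) were chosen after their values were seen, or overlap a member.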

Additional observations from a re-analysis of the deposited data

How the results depend on the processing

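NACC2 kept its direction and its call in all 14 alternatives (log2 fold change 0.52 to 0.98), and no member changed sign in any. BEND3 ran from -0.56 to -0.36 when 1 library was left out and lost its call without LacZ replicate 3. Leaving out 1 library gave 1 to 4 called members, 1 to 2 higher and 0 to 2 lower, and 2287 to 5486 called genes, 1331 to 2789 of them higher and 956 to 2697 lower. With library totals as the only scaling 2 members were higher, BEND4 being the addition. With GC and length trends removed the genes called were 2836 higher and 3612 lower, against 2540 and 2084 in the main analysis, while the members called were still 3, and the cause was not tested. No paired analysis was possible because the groups share only replicate number 1. Depth limits BEND5, BEND6 and BEND7 most, each with under 300 counts a library. The GC and length fit gave no value for C9orf69 and C17orf96, and so its PRC2 count lacks C17orf96.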
